A study of Caenorhabditis elegans with 40 samples.

Results

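HSF-1 sites that lost signal when HSF-1 was removed from somatic tissues of unstressed Caenorhabditis elegans are described here. They are all distinct entries of the authors' soma and shared lists at 20 °C, which together hold 289 of the 500 HSF-1 summits common to the control animals at that temperature (57.8%). The soma list holds 47 of them, with a region lost on somatic depletion only, and the shared list 242, with a region lost on somatic and another on germline depletion. The remaining 211 summits, called the other common summits, are 179 of the germline list and 32 in no list. Of all 500 common summits, 84.2% were in the germline or shared list. HSF-1 binding was measured by ChIP-seq, the sequencing of DNA co-precipitated with a protein, here with an antibody to GFP.

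The compared groups were animals depleted of HSF-1 by 2 h on auxin plates and control animals kept for the same time on ethanol plates. Each was collected at 20 °C as 2 HSF-1 ChIP libraries of young adults. Both groups were strain JTL611, in which the endogenous protein was tagged (hsf-1::aid::gfp) and TIR1::mRuby was driven by the eft-3 promoter from the transgene ieSi57, in an unc-119(ed3) background rescued by Cbr-unc-119(+). The controls thus carried the tag and TIR1 too, and the labels give the soma as the tissue of TIR1. The germline depletion that defines the shared list was done in strain JTL621, with TIR1 under the sun-1 promoter (ieSi38) and the same tag, also on auxin or ethanol for 2 h at 20 °C. Lists of the same strains after 30 min at 34 °C (heat shock) served as a second data set. Nothing in the labels says that libraries came from separate cultures. The lists give 1 value per site and none per library, so neither the spread between replicates nor the depth is known, and every test below treats summits as units, which are not replicate animals.

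HSF-1 is the transcription factor at the head of the heat shock response in animals and fungi. It binds as a trimer to heat shock elements, repeats of a short inverted unit, and activates genes of chaperones such as HSP70 and the small heat shock proteins. In C. elegans it is also needed without stress, for larval development and for the germline. Auxin bridges the degron tag to TIR1, a plant F-box protein, and the tagged protein is then degraded by the proteasome, so tissue-limited TIR1 removes HSF-1 from that tissue only. Whole animals were used for the precipitation. Signal that remained in depleted animals cannot be told apart by tissue of origin.

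A pair of scores accompanies each site, both of them the authors' own. The peak score gives the strength of the summit in control animals. The score of somatic loss belongs to the region called lower in depleted than in control animals, and its column heading names minus the logarithm of a p-value without giving the base. It measures evidence for a loss and not its fraction, and it grows with signal as well as with loss. The lowest scores of somatic loss in the lists were 12.296, 12.4 and 12.7. Summits outside the lists have no such score, so values just below the limit are not known.

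The 289 summits lay in 275 distinct regions, each summit inside the region assigned to it. Over the summits, the length of the region had a median of 446 bp, with quartiles of 324 and 650 bp. Regions with a single summit made up all but 5. The longest spanned 8121 bp on chromosome V, from 7916918 to 7925038, and held 11 summits with peak scores of 13705 to 70728, all in intergenic sequence upstream of srsx-7, a chemoreceptor-type gene. These 11 summits share 1 score of somatic loss, 277, and so count as 1 measurement of loss. Summit positions are given as deposited, on a genome build that the labels and headers do not name, and genes are those of the WBcel235 annotation.

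By chromosome, 41 of the 59 common summits on I were lost on somatic depletion (69.5%), 36 of 72 on II (50%), 33 of 74 on III (44.6%), 75 of 133 on IV (56.4%), 76 of 117 on V (65.0%) and 28 of 45 on X (62.2%). Chromosome X held 9.69% of the summits lost on somatic depletion and 8.06% of the other common summits, a difference of 1.63 percentage points that did not pass the test (two-sided Fisher's exact test, adjusted p = 0.636 by Benjamini-Hochberg over 6 tests). In the annotation, 205 of the 289 summits were intergenic, 73 intronic, 9 in a 5' UTR and 2 in a 3' UTR. Of the 211 other common summits, 139 were intergenic and 59 intronic. None of the 289 was in coding sequence, against 4 of the other common summits.

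Within 1000 bp of a protein-coding transcription start site (TSS) lay 101 of the 289 summits, 34.9% (exact 95% confidence interval 29.5 to 40.8), against 89 of 211 other common summits, 42.2% (35.4 to 49.2). The difference of -7.23 points did not pass the test (Fisher's exact test, adjusted p = 0.169), and it was 10.1 points in the opposite direction among summits with a peak score under 1000 (adjusted p = 0.128). Of all 190 TSS-proximal common summits, 53.2% were lost on somatic depletion. The 101 summits served 138 genes, and 41 of them lay within 1000 bp of more than 1 gene. They sat mostly just upstream, 80 of 101 on the upstream side of the nearest TSS (79.2%), at a median of -190 bp, with 57 within 300 bp. The 89 other common summits near a TSS were much alike, with 67 upstream (75.3%), a median of -219 bp and 42 within 300 bp. The 188 remaining members lay at a median of 3173 bp from the nearest protein-coding TSS, and 46 of them beyond 5000 bp. For the 122 remaining other common summits the median was 3024 bp, with 30 beyond 5000 bp.

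Membership rose with the peak score. It rests on the score of somatic loss, which grows with signal and uses the same control libraries, so this is a description. Below a peak score of 100, 24 of 95 common summits were lost on somatic depletion (25.3%), from 100 to 300, 41 of 113 (36.3%), and from 300 to 1000, 57 of 117 (48.7%). From 1000 to 3000 the count was 78 of 85 (91.8%), from 3000 to 10000 it was 37 of 38 (97.4%), and at 10000 or above all 52 were lost. The soma list stood at the weak end, with 38 of its 47 summits below 300. The median peak score was 121 in the soma list and 2079 in the shared list, against 212 in the germline list and 67.1 among summits in no list. Weaker members lay near a TSS in a larger share: 15 of the 24 with a peak score under 100 did so (62.5%), and 8 of the 52 at 10000 or above (15.4%). This was not particular to members. Under a score of 1000, 52.5% of members and 42.4% of the other common summits lay near a TSS. At or above the median peak score of 470 it was 25.6% of members and 23.3% of the other common summits.

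**Figure D1:**
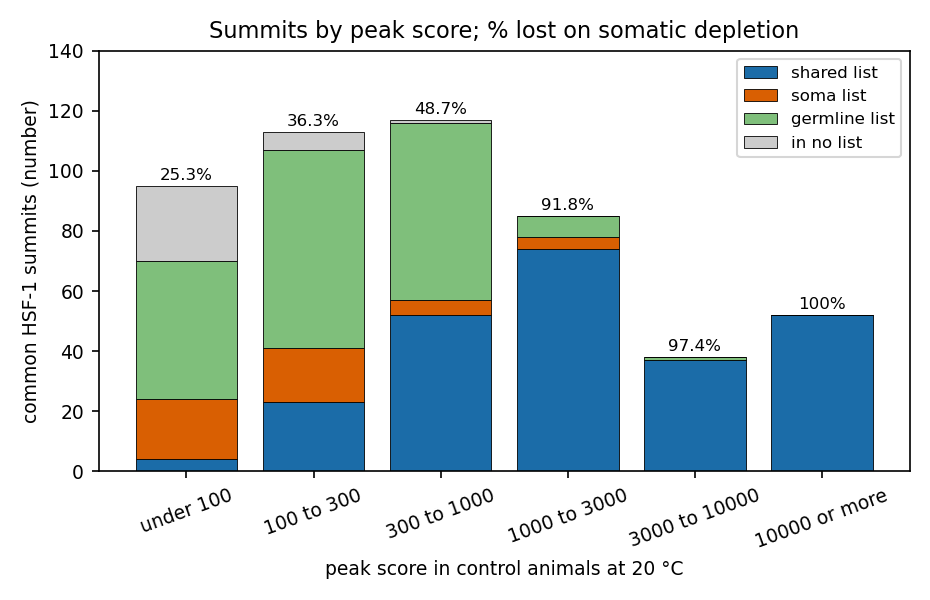
Number of common HSF-1 summits at 20 °C (vertical axis) by peak score in control animals (horizontal axis), with bars stacked by list. The percentage above each bar is the share in the shared or soma list, which runs from 25.3% below a score of 100 to 100% above 10000.

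The score of somatic loss increased with the peak score over the 289 summits (Spearman's rho 0.74, Pearson's r of the logarithms 0.81). Both scores rest on the same control libraries, and summits are not independent replicates, so this is a description. Within the soma list rho was 0.70 (n = 47) and within the shared list 0.83 (n = 242). The slope of log10 loss on log10 peak score was 0.39. Score of somatic loss divided by the value on that line, called the fold over the line, ranged from 0.297 to 7.12, with quartiles of 0.662 and 1.57. In the shared list its median was 1.06 for the 76 summits within 1000 bp of a TSS and 0.756 for the 166 away from one. In the soma list it was 1.64 for 25 summits near a TSS and 1.76 for 22 away. No test is given, since the score of loss chose the members. The lowest loss, 12.296, is also close to the line at weak peaks, which stands at 14.1 for a peak score of 121. Weak members thus could not stand far below the line. Groups of unlike peak score, such as the 2 lists, cannot be compared by this fold.

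The 4 summits farthest above the line lay near a TSS. Distances to a TSS are signed, negative upstream of it. The summit shared by F44E5.4 and F44E5.5, a divergent pair of heat-inducible HSP70 genes, lay on chromosome II at 11759480, at -169 and -182 bp from their TSSs. Its peak score of 25068 ranked 30th and its somatic loss of 807 ranked 2nd of 289, 7.12 times the line. The gene pck-2, for a phosphoenolpyruvate carboxykinase of gluconeogenesis, had its summit in the 5' UTR, on chromosome I at 7869253 and 157 bp from the TSS. It had the highest somatic loss, 1589, with the peak score of rank 2, 163945, and stood 6.74 times above the line.

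F19B2.5 followed at 4.27 times the line, with a summit on chromosome V at 20164695 and -530 bp from the TSS. Its score of somatic loss was 172, the highest in the soma list, with a peak score of 1764. R107.5, on chromosome III at 9054046 and -256 bp from the TSS, had a loss of 273 at a peak score of 6193, 4.16 times the line. Next was the weakest summit of the long srsx-7 region on chromosome V, at 3.09 times the line with the loss shared by all 11 summits there.

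The 5 summits farthest below the line were all of the shared list and all more than 1000 bp from a TSS. The weak peaks of the soma list could hardly stand there, given the lowest loss in the lists. On chromosome II at 1984701, nearest to Y16E11A.4, a peak score of 2249 went with a loss of 13.2, 0.297 times the line. On chromosome IV at 16458576, nearest to VY10G11R.1 and 12412 bp downstream of its TSS, 4577 went with 18.0. The other summits were nearest to nhr-11, a nuclear hormone receptor gene (0.389 times the line), to rga-5 (0.403) and, in an intron of sre-48, to Y39G8B.2 (0.423).

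**Figure D2:**
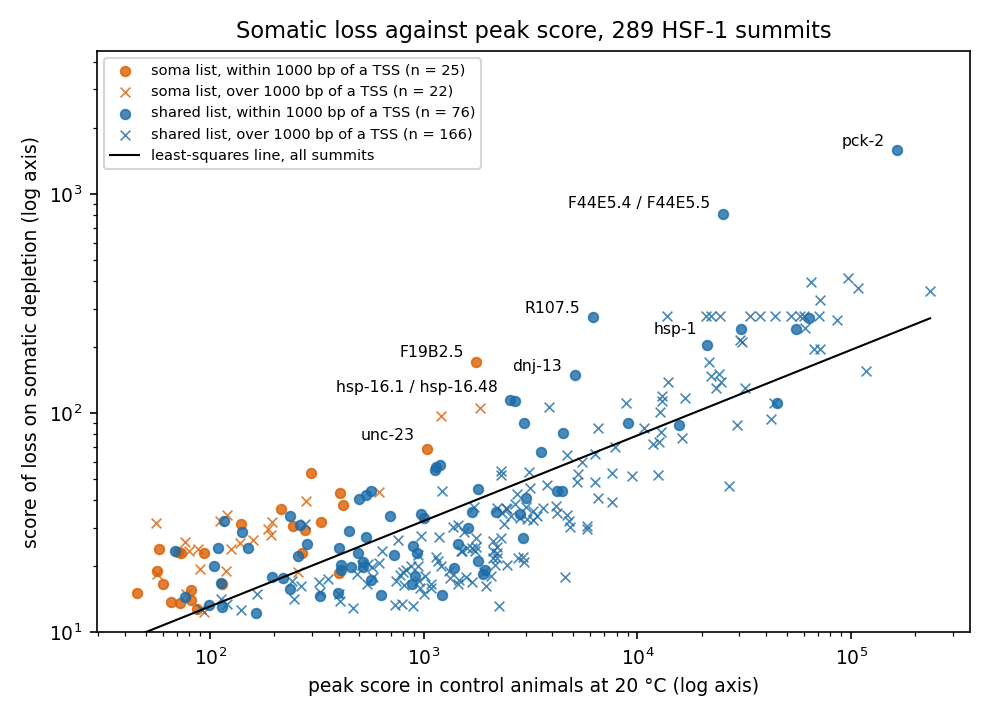
Score of loss on somatic depletion (vertical log axis) against peak score in control animals (horizontal log axis) for the 289 summits, coloured by list and with circles for summits within 1000 bp of a protein-coding TSS and crosses for the rest. F44E5.4 with F44E5.5 and pck-2 stand 7.12 and 6.74 times above the least-squares line.

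After pck-2 and F44E5.4, ranks 3 to 7 of somatic loss were held by shared-list summits beyond 1000 bp of any TSS. They were an intergenic summit on X at 1375251 nearest to the F-box gene fbxa-190 (loss 414), an intronic one in the copper transporter gene cua-1 on III (396), an intergenic one on V at 15321128 nearest to nhr-247 (373), an intronic one in tir-1, an innate immune adaptor gene, on III (362), and an intergenic one on IV at 15059372 nearest to Y41E3.13 (327). The tir-1 summit had the highest peak score of all, 234251, and stood 1.33 times above the line. Rank 8 was the srsx-7 region. Whether such strong distal summits lie in repeated sequence was not examined, as no genome sequence was used here. Of the promoter sites, the collagen gene col-52 (loss 273, at -705 bp) and ZK1053.2, with a pair of summits in 1 region (241), came next after R107.5.

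Genes of 8 lists of chaperones and HSF-1 regulators were examined by role. At 29 listed genes a common summit stood within 1000 bp, and at 27 of them, with 25 summits, it was lost on somatic depletion. The same held for 138 of all 252 protein-coding genes with such a summit (54.8%). Many of these summits had another gene's TSS closer by, let-99 for hsb-1, urm-1 for sip-1 and C47E8.4 for hsp-90 among them, and are named for the listed gene. The exceptions were cct-5, whose summit was in the germline list, and hsp-70, whose weak summit (peak score 93.3) was in no list. Of the 25 summits, 20 stood above the line, with a median of 1.66 times. The same held for 45 of the 76 other members near a TSS, with a median of 1.14 times, and for 130 of all 289. Median peak scores were 632 at the 25 summits, 455 at the 76 and 1452 over all 289. The groups are thus not compared at like peak score. The lists were chosen with earlier results of these data known and were not tested.

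For cytosolic HSP70s, the constitutive gene hsp-1 on IV had a loss of 205 at a peak score of 21244, at -421 bp, and stood 1.93 times above the line. The HSP110 gene hsp-110, a nucleotide exchange partner of HSP70, shared its summit with the proteasome subunit gene rpn-3 and had a loss of 66.2 at 3542. The soma list held hsp-6, for the HSP70 of mitochondria, with a loss of 43.4 at a peak score of 403. The mitochondrial chaperonin gene hsp-60, which shares a summit with Y22D7AL.10, had a similar loss of 41.2 at a much higher peak score of 2995, 0.832 times the line.

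Small heat shock protein genes lay on both sides of the line. The repeated hsp-16.1 and hsp-16.48 pairs on chromosome V gave losses of 113 and 115 at peak scores of 2667 and 2541, for summits at 9087948 and 9089948. These copies are nearly identical and may share reads, so their values are uncertain. The divergent hsp-16.2 and hsp-16.41 summit on V at 1805124 had a loss of 19.8 at 455, 0.836 times the line. A summit 738 bp downstream of the TSS of sip-1, a small heat shock protein gene of the germline and embryo, had the lowest loss of all 289 summits, 12.296.

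For hsp-90 the loss was 81.0 at a peak score of 4496, and for its co-chaperone genes it was 40.8 at fkb-6, 34.1 at sti-1, 24.2 at ahsa-1 and 22.3 at sgt-1, all between 1.07 and 1.66 times the line. Among the J-domain genes, which encode partners that stimulate HSP70, dnj-13 had 150, dnj-12 had 90.3 and dnj-19 had 28.9. The BAG-domain genes unc-23 and bag-1, which encode nucleotide exchange factors of HSP70, had 68.9 and 44.0 at peak scores of 1037 and 564. A further soma-list summit at unc-23, on V at 8936941, had 23.1.

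Of the cytosolic chaperonin CCT and its partner prefoldin, cct-8 had a loss of 56.7, cct-7 of 34.1, cct-3 of 19.2 and pfd-1, a prefoldin subunit gene of the soma list, of 13.7. The gene of the negative regulator HSB-1, hsb-1, stood lowest against the line among these sites, with a loss of 14.9 at a peak score of 632, 0.551 times. Its germline loss was 304, the highest but 1 of the chaperone and regulator summits in the shared list after hsp-1 at 458.

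In the other lists, ubq-1, the polyubiquitin gene, had a pair of summits of different kinds. The shared-list summit at -940 bp had a loss of 22.5, and the soma-list summit at -100 bp one of 16.6. The proteasome subunit gene rpn-2 had 35.4 and the germ granule and small RNA genes csr-1, glh-1 and hrde-1 had 29.8, 24.2 and 23.0. Of the ribosomal protein genes with a summit, rpl-15 (29.2, soma list) and rps-26 (17.9) were members and the other 4 were not, and the 5 histone genes, which share 2 summits, were not. Of all genes with a summit, 54.8% were. The actin gene act-2 (19.8) was a member. Of 3 nuclear hormone receptor genes, nhr-47 (28.9) and nhr-163 (44.0) were members, and nhr-247 had a germline-list summit near its TSS. The F-box genes fbxa-194 and fbxb-117, the meiotic cohesin gene rec-8 and the aldolase gene aldo-2 had a summit and were not members. No gene of the insulin signalling or vitellogenin lists had a common summit within 1000 bp.

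The soma list was led by F19B2.5 and by a pair of distal sites, on X at 16929863 nearest to C30E1.4 (loss 106, peak score 1829) and on II at 12102592 nearest to Y17G7B.17 (97.3 at 1201). Then came unc-23, a site upstream of the receptor gene srh-70 and the homeobox gene ceh-99 (53.4), a distal site nearest to Y37A1B.7 (43.8), hsp-6, which shares its summit with C37H5.5, an intronic site of Y111B2A.12 (39.8), Y43F8B.2 (38.0) and Y94H6A.10 (36.7). Of its 25 summits near a TSS, 23 lay upstream, against 57 of 76 in the shared list and 67 of 89 other common summits. The list also held single promoter summits of pek-1, the PERK kinase gene of the endoplasmic reticulum stress response (31.2), of mnk-1 (30.5), of ftt-2, a 14-3-3 protein gene (18.6), and of a weak site in an intron of pck-2 on I at 7867252 (14.1), close to R11A5.6 as well, all named after their values were seen. None of the 47 shared a region with another summit.

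At the 242 shared-list summits the somatic and germline losses were compared. These come from different strains and libraries whose depths are unknown, so their ratio has no absolute meaning, a ratio of 1 included, and serves only to order sites. The score of somatic loss was a median of 0.0748 times the germline score, 0.300 times at the 76 summits near a TSS and 0.0645 times at the 166 away from one. The rank correlation of somatic with germline loss was 0.15 near TSSs (n = 76) and 0.83 away from them (n = 166). With 1 value per region it was 0.11 (n = 75) and 0.84 (n = 141). Somatic loss had medians of 28.1 near and 31.8 away, and germline loss of 117 near and 515 away. The groups also differed in peak score, with medians of 902 near and 2457 away, and germline loss followed peak score (rho 0.83, n = 242). Between peak scores of 100 and 300 the median ratio was 0.471 at 15 summits near a TSS and 0.282 at 8 away. From 300 to 1000 it was 0.197 at 23 near and 0.101 at 29 away. From 1000 to 3000 it was 0.120 at 20 near and 0.0684 at 54 away. From 3000 to 10000 it was 0.534 at 7 near and 0.0506 at 30 away. At 10000 or above it was 0.0400 at 8 near and 0.0394 at 44 away. The shared list requires a call in both tissues, so these values carry no test.

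In this order, the 15 summits with the highest ratios were those above 1. Of them 13 lay near a TSS, against 76 of all 242 shared-list summits. Their germline losses were all 75.4 or less, where the shared list runs from 14.6 with a median of 341. These ratios thus rest on low germline scores. F44E5.4 with F44E5.5 had the highest ratio, 10.7, with a germline loss of 75.4, followed by R107.5 at 10.1, with a germline loss of 26.9. The others near chaperone genes were dnj-13 (ratio 3.23), both hsp-16.1 and hsp-16.48 pairs (2.92 and 2.78), dnj-12 (2.34), cct-7 (2.12), fkb-6 (1.50), dnj-19 (1.21) and bag-1 (1.06). The remaining near a TSS were at tent-5 (3.65), which encodes a noncanonical poly(A) polymerase, mbf-1 (1.94), a transcriptional coactivator gene, and nurf-1 (1.32), a chromatin remodeller gene. The distal sites were nearest to vab-10 (3.79), a spectraplakin gene, and mrpl-51 (2.15). In contrast pck-2, first in somatic loss, had a germline loss of 3655 and a ratio of 0.435. Of the 21 shared-list summits at chaperone and regulator genes, 9 had a ratio above 1, and the median of the 21 was 0.789. Among the 55 other shared-list summits near a TSS it was 4, with a median of 0.133.

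**Figure D3:**
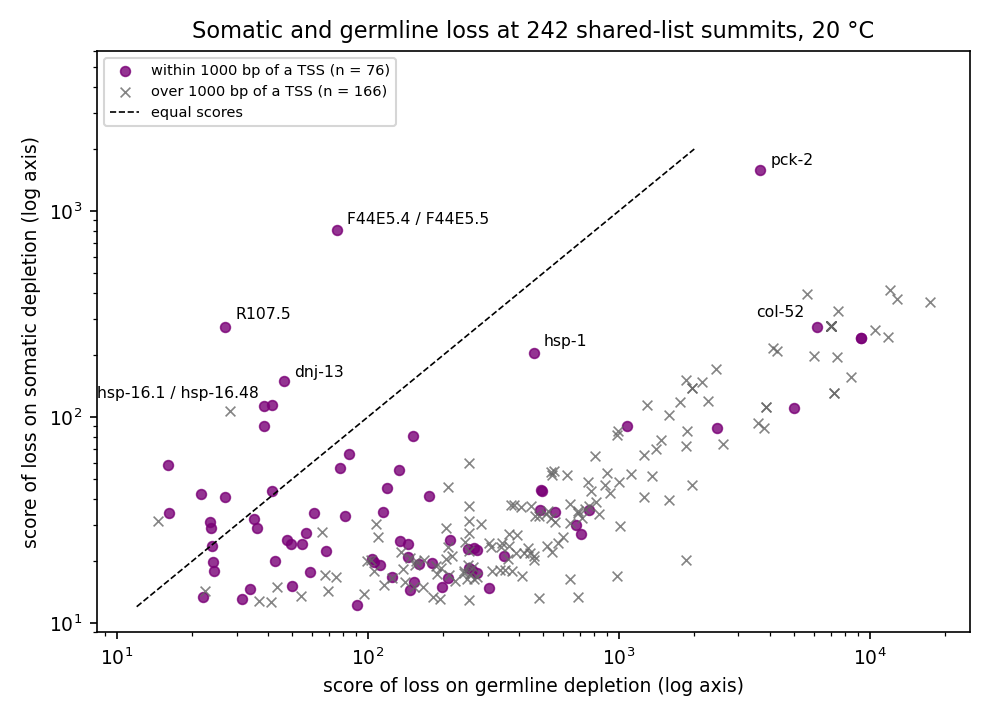
Score of loss on somatic depletion (vertical log axis) against score of loss on germline depletion (horizontal log axis) for the 242 shared-list summits at 20 °C, with circles for summits within 1000 bp of a TSS, crosses for the rest and a dashed line of equal scores as a guide to the eye. F44E5.4 with F44E5.5 (807 somatic, 75.4 germline) lies farthest above the dashed line, and the circles scatter more widely than the crosses (rho 0.15 and 0.83).

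The lists after heat shock come from libraries that did not choose these sites. A common summit after heat shock lay within 100 bp of 233 of the 289 summits, 80.6% (exact 95% confidence interval 75.6 to 85.0), against 117 of 211 other common summits, 55.5% (48.5 to 62.3). They differed by 25.2 points (adjusted p = 1.24e-08 by Fisher's exact test). This difference went with peak strength. Among summits with a peak score under 1000 it was 57.4% against 54.2% (Fisher's exact test, adjusted p = 0.645), and at or above the median of 470 it was 97.6% against 95.3% (adjusted p = 0.414). By list, 13 of 47 soma-list summits (27.7%) and 220 of 242 shared-list summits (90.9%) had a counterpart.

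Somatic loss was called again at most matched sites. Of the 233, 210 were in the soma or shared list after heat shock (90.1%, exact interval 85.6 to 93.6), against 75 of 117 matched other common summits (64.1%, 54.7 to 72.8), and 72.8% of all 441 common summits after heat shock were so listed. The shares differed by 26.0 points (adjusted p = 3.44e-08 by Fisher's exact test). At or above the median peak score it was 15.0 points (adjusted p = 0.0189 by Fisher's exact test), and under a score of 1000 it was 12.08 points (75.7% against 63.6%) and did not pass (adjusted p = 0.169).

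The 210 sites with a score in both conditions kept part of their order (rho 0.61). They fell in 190 regions after heat shock, so some share a value. At 20 °C and after heat shock the score of somatic loss was 1589 and 1085 at pck-2, and 807 and 549 at F44E5.4 with F44E5.5. It was 113 and 729 at the first hsp-16.1 and hsp-16.48 summit, where both pairs share 1 region after heat shock, 205 and 46.2 at hsp-1, and 172 and 34.1 at F19B2.5. Scores of the conditions rest on different libraries, so only their order within a condition can be read. The highest score after heat shock among these sites, 1403, was at an intergenic summit on X at 2003054 nearest to Y40A1A.3, which had 244 at 20 °C. Both hsp-1 and F19B2.5 stood below the median of these sites after heat shock, 65.4, and above the median of the same 210 sites at 20 °C, 35.1. Their peak scores differed as well, 21244 at 20 °C and 5629 after heat shock at hsp-1, and 1764 and 222 at F19B2.5. The score of loss grows with signal, and whether the change in order goes with peak strength was not tested.

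After heat shock the score of somatic loss had a median of 55.2 at 62 matched sites near a TSS and 69.5 at 148 away from one, a ratio of 0.794 that did not pass (permutation test of the difference of log10 medians, two-sided, adjusted p = 0.262). Against the line of loss on peak score after heat shock, sites near a TSS stood at a median of 1.58 times and those away at 0.801 times, the same order as at 20 °C in the shared list. Peak scores after heat shock had medians of 3229 near and 13289 away, so this order cannot be told apart from a difference in peak strength. Of the shared-list sites, 29 had a counterpart in the soma list after heat shock and 170 in its shared list. Near a TSS lay 27 of the 29 and 28 of the 170. Their ratio of somatic to germline loss at 20 °C had a median of 0.557 with a soma-list counterpart and 0.0654 with a shared-list one. These groups differ in their share near a TSS, and shared-list sites near a TSS had the higher ratio at 20 °C (median 0.300 against 0.0645 away). The ratio was not compared among sites near a TSS alone or at like germline loss, so the difference was not tested.

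**Figure D4:**
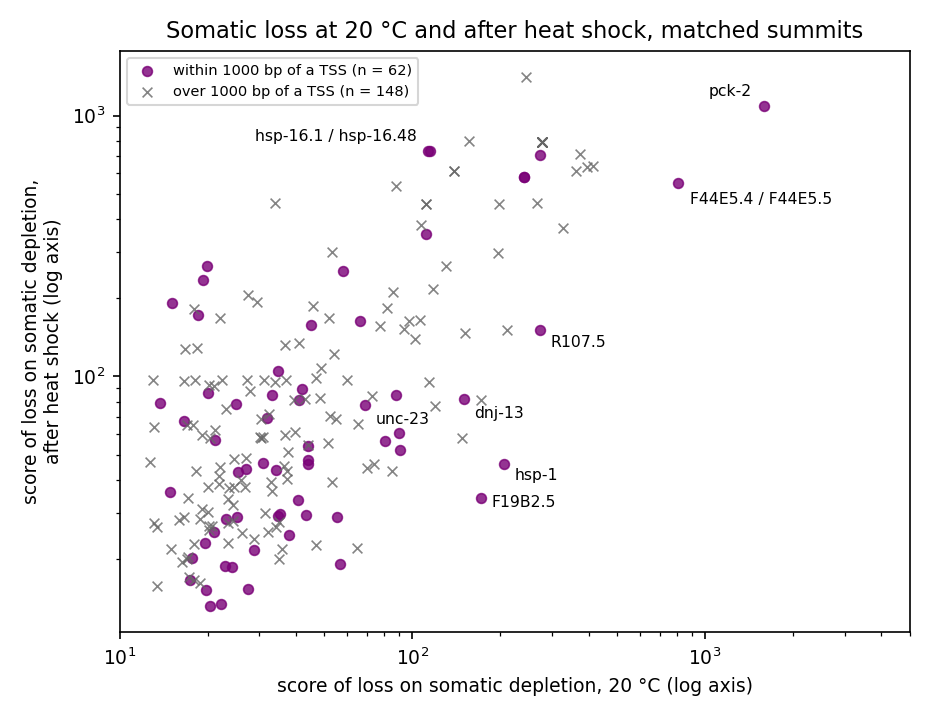
Score of loss on somatic depletion after heat shock (vertical log axis) against that at 20 °C (horizontal log axis) for the 210 matched summits listed as lost in the soma in both conditions, with circles for summits within 1000 bp of a TSS and crosses for the rest. pck-2 has the highest score at 20 °C (1589, and 1085 after heat shock), and hsp-1 and F19B2.5 lie low after heat shock for their score at 20 °C.

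Summits lost on somatic depletion were also more often close to another common summit. Within 5000 bp of another lay 114 of 289, 39.4% (exact interval 33.8 to 45.3), against 62 of 211 other common summits, 29.4% (23.3 to 36.0), which is 10.1 points more (adjusted p = 0.0457 by Fisher's exact test). Of the 289, 19 lay in 5 regions with more than 1 summit, 11 of them in the srsx-7 region, and each was counted separately. They are close neighbours that share a call of loss. No setting with 1 summit per region was run, so the call may rest on them. It was lost with a distance of 1000 or 20000 bp (Fisher's exact test, adjusted p = 0.169 in both cases). The direction turned at or above the median peak score, with 45.9% against 53.5%, and under a score of 1000, with 27.0% against 28.1%.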

How the data were processed

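HSF-1 ChIP-seq of young adult animals was analysed from the authors' lists of summits and regions. Chromatin was fixed in 2% formaldehyde and sheared to 200 to 600 bp, and 0.5 µg entered each precipitation, per the labels' protocols. Bowtie2 and MACS2 are named, per the submitters' processing notes. Their versions, the genome build, filters and any pooling of libraries are not stated there. The peak score and the score of loss are used as the authors deposited them. Per the file headers, the score of loss is minus the logarithm of a p-value, of unknown base, and it was handled as a score. The peak score's reference is not stated. Libraries of RNA polymerase II and of input DNA were not used here.

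Listed summits were matched by name to the file of common summits, with equal positions and scores for all. Genes came from Ensembl release 115 (WBcel235), protein-coding only. Of 19985 genes, 19959 had the same name in the name table. Since the files name no build, moving all coordinates by 500 bp either way was tried. Summits after heat shock were matched at 100 bp. Fisher's exact test compared shares, and medians were compared with 100000 permutations (seed 1), with Benjamini-Hochberg adjustment over 6 tests at 0.05. Intervals are exact (Clopper-Pearson, 95%) and cover counting error only. The functions were tested on simulated data. Python 3.11.15, SciPy 1.17.1 and pandas 2.3.3 were used.

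The members, the gene lists and the tests were chosen with earlier results of these data known. Named were the genes at the 10 highest losses of each list, those at all chaperone and regulator sites, up to 4 genes of each other list, the 5 sites farthest above and below the line, and those marked as named later. The sites at which the somatic score exceeded the germline score, and the alternatives with a peak score under 1000, moved coordinates or 1 value per region of somatic and germline loss, were chosen after the data were seen. Planned searches for heat shock elements were not run, as no sequence was used here.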

Additional observations from a re-analysis of the deposited data

How the results depend on the processing

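No paired analysis was possible because no value in the lists belongs to a single library, and leaving out a library was not run for the same reason. Of 29 alternatives, 19 were counted as unchanged, 5 turned direction and 5 lost the call. For the tests, unchanged means the same direction and call, and includes results that stayed uncalled. The alternatives of the rank correlations, which have no test, were counted as unchanged when rho moved little. For closeness to another summit, the difference was 5.94 points with a distance of 1000 bp and 7.79 points with 20000 bp, neither called. It was -7.59 points at or above the median peak score and -1.03 points under a score of 1000. For the counterpart after heat shock, the difference was 2.24 points at or above the median and 3.19 points under 1000, neither called. For renewed somatic loss it was 12.08 points under 1000, not called. The TSS difference, not called in any setting, was 2.35 points at or above the median and 10.1 points under 1000, both opposite to the main value. Moving the coordinates left or right gave -3.70 and -3.90 points. The ratio of losses after heat shock near and away from a TSS, never called, was 1.03 with a distance of 500 bp. The rank correlation of loss with peak score ranged from 0.70 to 0.83. The summits at or above the median include only 43 other common summits, which limits that setting. The lists give no depth, so what depth limits cannot be stated.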
